A study of Mus musculus with 14 samples.

Results

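Ribosome biogenesis genes encode the factors that transcribe, modify, cut and assemble ribosomal RNA, and 44 of them were followed here in 14 tumour libraries treated with an inhibitor of MYC, an inhibitor of class IIa histone deacetylases, both or neither. The 44 genes were taken as a named list, found by matching mouse gene symbols to the gene identifiers of the deposited table. All 44 were among its 21152 identifiers, and all 44 were among the 13711 genes tested, the genes whose average exceeded the table's lowest value of 4.047 by more than 1 log2 unit.

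The tumours were grown in mice from LLC1, the mouse Lewis lung carcinoma line. Mice received MYCi975 at 50 mg/kg (4 libraries), TMP195 at 50 mg/kg (3 libraries), MYCi975 together with TMP195 (3 libraries, with doses that the labels do not state) or the solvent DMSO, called vehicle below (4 libraries), in each case for 16 days. MYCi975 is a small molecule that inhibits the transcription factor MYC, and TMP195 inhibits HDAC4, HDAC5, HDAC7 and HDAC9. The labels name an enriched tumour population, while the design text names a suspension of single tumour cells profiled in bulk. Values are variance-stabilised expression on a log2 scale, on which a difference of 1 is a 2-fold difference well above the floor and less than that near it. They are not scaled by gene length, so levels are compared between groups and not between genes.

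Ribosome production begins in the nucleolus, where RNA polymerase I transcribes the long precursor of the ribosomal RNAs. Small nucleolar ribonucleoproteins, called snoRNPs, guide the chemical modification of this precursor, and large sets of assembly factors fold and cut it into the small and the large ribosomal subunit. MYC is known to drive many of the genes involved, together with RNA polymerase I itself, and nucleolar enlargement is a long-known feature of MYC-driven tumours.

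MYC binds DNA with its partner MAX at the E-box CACGTG, a palindrome that reads the same on both strands. RefSeq promoter windows on GRCm38.p6, from 250 bases before to 50 bases after the transcription start, were matched by symbol for 39 of the 44 genes (not Fbl, Npm1, Rrp12, Bop1 and Rrs1). The motif was in a window of 10 of the 39 (25.6%), against 1109 of 9565 matched tested genes (11.6%) and 2187 of all 27025 genes with a window (8.09%). Counted from the first transcribed base, it began at position 18 in Wdr43, 29 in Ltv1, 38 in Utp20, 3 in Pes1, 41 in Mybbp1a and 25 in Tsr1, all after the start. It lay 121 bases before the start in Imp4, 60 in Nop2, 20 in Utp18, and both 215 and 48 in Rrn3. The stretches below run 5′ to 3′ from 100 bases before to 30 bases after the start, with CACGTG in capitals, and are shown for genes whose values are described below. Rrn3, Wdr43 and Utp18 hold the motif, and Wdr74, Nop58 and Ncl, for which values in each library follow, do not hold it in these stretches.
Rrn3, chr16:13780599-13780728, plus strand: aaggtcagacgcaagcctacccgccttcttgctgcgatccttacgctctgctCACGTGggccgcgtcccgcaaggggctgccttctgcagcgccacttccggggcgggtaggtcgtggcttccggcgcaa
Wdr43, chr17:71616115-71616244, plus strand: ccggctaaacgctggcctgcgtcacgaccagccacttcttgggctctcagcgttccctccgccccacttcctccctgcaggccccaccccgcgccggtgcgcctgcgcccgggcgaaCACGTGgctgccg
Utp18, chr11:93885737-93885866, minus strand: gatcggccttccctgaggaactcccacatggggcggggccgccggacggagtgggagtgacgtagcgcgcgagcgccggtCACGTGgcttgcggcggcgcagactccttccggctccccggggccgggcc
Wdr74, chr19:8735739-8735868, plus strand: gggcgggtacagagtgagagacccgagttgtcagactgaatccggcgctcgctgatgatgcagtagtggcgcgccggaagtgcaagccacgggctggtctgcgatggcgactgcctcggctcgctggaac
Nop58, chr1:59684906-59685035, plus strand: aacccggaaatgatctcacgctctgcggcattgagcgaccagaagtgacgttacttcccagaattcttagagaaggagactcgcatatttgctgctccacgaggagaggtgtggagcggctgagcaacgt
Ncl, chr1:86359426-86359555, minus strand: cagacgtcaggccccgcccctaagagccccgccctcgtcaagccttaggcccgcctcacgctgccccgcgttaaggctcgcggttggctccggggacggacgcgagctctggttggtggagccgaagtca
A match is a description of these letters only, and no match says only that they are not in the window.

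Among the libraries, MYCi975 replicate 2 had the most genes at the lowest value (2954, against 880 to 2744 in the other 13 libraries) and the highest level of Ptprc, the pan-leukocyte antigen (12.07, against 9.65 to 11.45 in the others). MYCi975 replicate 3 stood apart for the genes described here: 42 of 44 lay above their own mean over all libraries, with a median deviation of 0.23 log2 units. Values without one of these libraries stand beside the results that they move most. Vim (14.14 to 14.69), Krt8 (7.86 to 8.65) and Krt18 (7.84 to 8.88), taken as tumour cell markers, were present in every library.

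**Figure D1:**
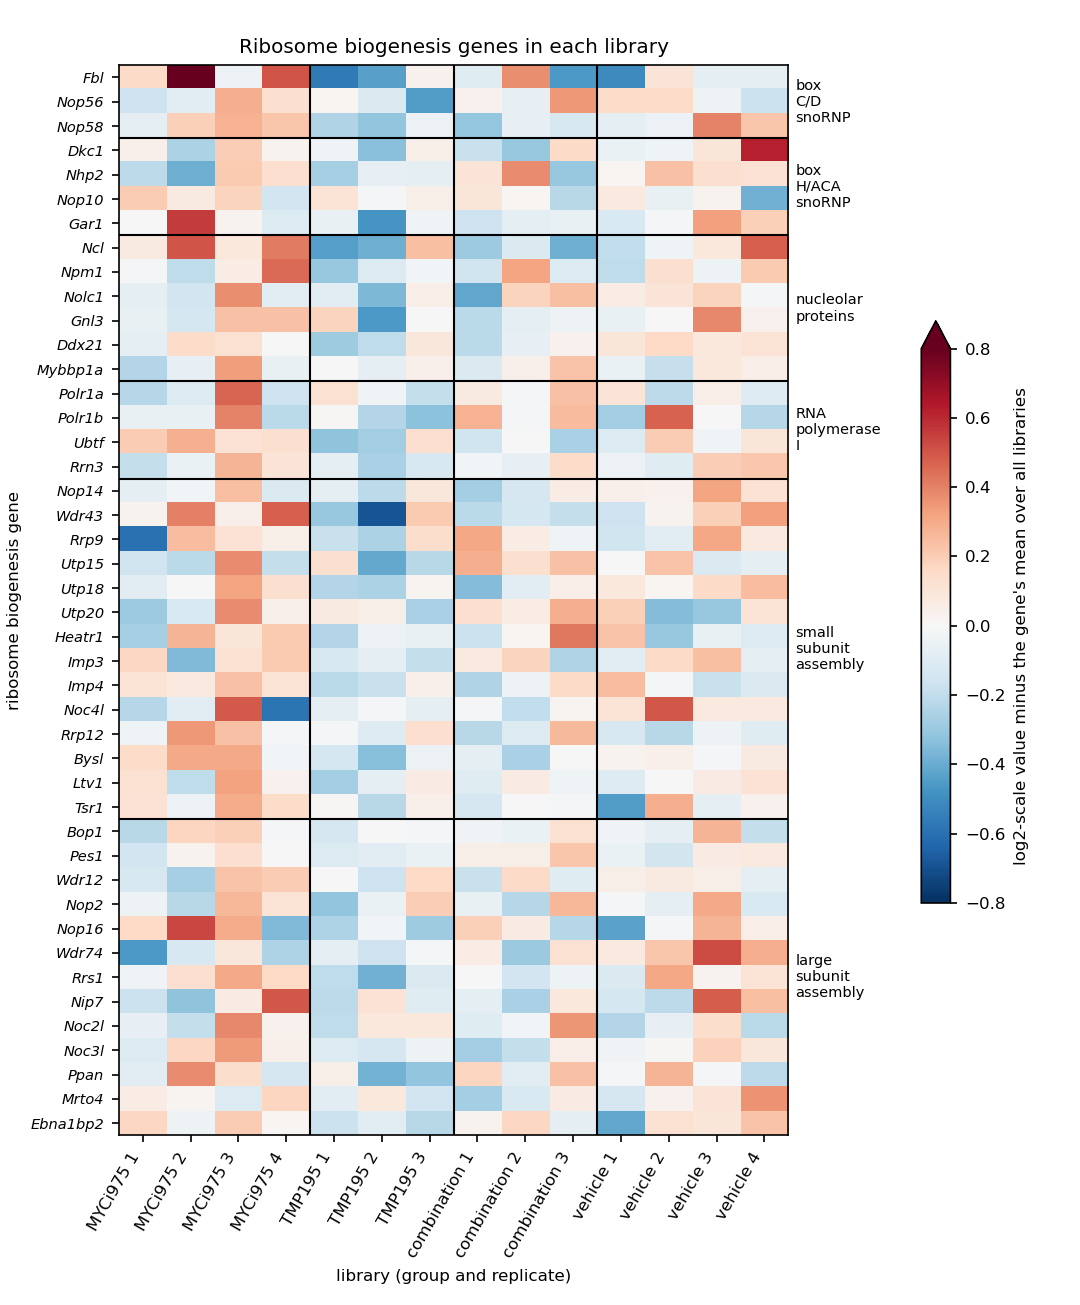
Value of each of the 44 ribosome biogenesis genes (rows, grouped by role) in each of the 14 libraries (columns), minus the gene's mean over all libraries, in log2 units; the colour scale ends at 0.8, which Fbl in MYCi975 replicate 2 exceeds. MYCi975 replicate 3 is red in 42 of 44 rows, while in TMP195 replicate 2 only 4 genes lie above their mean.

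Across the list, TMP195 tumours had lower values than vehicle tumours for most members, MYCi975 tumours did not, the combination lay between them, and no single gene passed the test in any comparison. The MYCi975 part rests on replicate 3: with it 16 of 44 members were lower than in vehicle tumours, and without it 27. Members above their own mean numbered 14, 20, 42 and 27 of 44 in the MYCi975 libraries, 10, 4 and 19 in the TMP195 libraries, 14, 17 and 26 in the combination libraries, and 15, 24, 32 and 28 in the vehicle libraries. TMP195 replicates 1 and 2 thus lay below all vehicle libraries, while TMP195 replicate 3 lay within their range. Over all tested genes the share above their own mean was 48.3% to 50.6% in every library. Bulk values cannot tell fewer cells of a type from less RNA per cell.

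The spread between libraries sets what could be seen. The within-group standard deviation of the 44 genes had a median of 0.20 log2 units, from 0.10 for Pes1 to 0.39 for Fbl, against a median of 0.24 over all tested genes. The standard error of a difference from vehicle had a median of 0.15 for MYCi975 and 0.16 for TMP195, so the 95% interval typically reached 0.31 and 0.34 to either side. Intervals lay wholly within 1 log2 unit of 0 for 43 of 44 genes in MYCi975 tumours, the exception being Fbl, and for 44 of 44 in TMP195 tumours and in combination tumours.

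MYCi975 against vehicle asks what the MYC inhibitor did to this list. In MYCi975 tumours 28 members were higher and 16 lower than in vehicle tumours. The median difference was 0.03, against 0.01 over all tested genes, and the share lower was 36.4%, against 48.3% of all tested genes. With limma and Benjamini-Hochberg adjustment over all tested genes, 0 of 44 members passed an adjusted p of 0.05, where 0% of all tested genes did. At an unadjusted p under 0.05 there were 2 members, or 4.55%, against 457 of all tested genes (3.33%). Wdr74 was the lower one (2.27%, against 1.49% of all tested genes) and Fbl the higher one (2.27%, against 1.85%). Differences below -0.2 were found for 2 members, Noc4l and Wdr74 (4.55%, against 12.2% of all tested genes). Those above 0.2 were also 2, Fbl and Rrp12 (4.55%, against 14.1%). Without MYCi975 replicate 3 the number of lower members was 27 and the median difference -0.03, and without MYCi975 replicate 1 these were 11 and 0.08.

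Wdr74, a factor in the maturation of the large subunit, was the member with the smallest p. It had 6.18, 6.51, 6.73 and 6.39 in the MYCi975 libraries, against 6.71, 6.86, 7.16 and 6.93 in the vehicle libraries. The groups overlap only in that MYCi975 replicate 3 lies just above vehicle replicate 1. The difference was -0.46 ± 0.15 (SE, 95% interval -0.79 to -0.14), with an unadjusted p of 0.0085 and an adjusted p of 0.999 by limma.

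Fbl, fibrillarin, the ribose methyltransferase of the box C/D snoRNPs, lay on the other side. Its values were 7.98, 8.93, 7.78 and 8.33 in the MYCi975 libraries, against 7.32, 7.93, 7.75 and 7.75 in the vehicle libraries. MYCi975 replicate 2 was far above the rest, and replicate 3 lay within the vehicle range. The difference was 0.57 ± 0.24 (SE, 95% interval 0.05 to 1.08, limma unadjusted p = 0.033, adjusted p = 0.999). Without MYCi975 replicate 2, the library with the highest Ptprc, it was 0.34. The part of leukocyte content in this value was not tested.

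Rrp12, an assembly and export factor of the small subunit, was the only member whose MYCi975 values (7.70, 8.08, 7.97 and 7.72) all lay above its vehicle values (7.61, 7.51, 7.69 and 7.63), as 1.03% of all tested genes did. Its difference was 0.26 (95% interval -0.03 to 0.54). No member lay wholly below vehicle, against 0.707% of all tested genes.

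Noc4l, a partner of Nop14 in the small subunit precursor, had 5.79, 5.93, 6.50 and 5.43 in MYCi975 tumours, against 6.13, 6.51, 6.10 and 6.09 in vehicle tumours. MYCi975 replicate 3 and vehicle replicate 2 were both high, and the difference of -0.29 had a 95% interval of -0.70 to 0.11. Without MYCi975 replicate 3 it was -0.49, and without MYCi975 replicate 4 it was -0.13. Nhp2, a core protein of the box H/ACA snoRNPs, had 6.87, 6.69, 7.29 and 7.21 in MYCi975 tumours, against 7.09, 7.32, 7.21 and 7.19 in vehicle tumours (difference -0.19, which was -0.08 without MYCi975 replicate 2 and -0.28 without MYCi975 replicate 3). Tsr1, a late small-subunit factor related to GTPases, had 8.59, 8.42, 8.76 and 8.61 in MYCi975 tumours, against 8.02, 8.76, 8.39 and 8.50 in vehicle tumours (difference 0.18, which was 0.05 without vehicle replicate 1 and 0.29 without vehicle replicate 2). For both genes the groups overlapped.

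TMP195 against vehicle asks what the deacetylase inhibitor did to the same genes. In TMP195 tumours 38 of 44 members (86.4%) were lower than in vehicle tumours, against 49.2% of all tested genes. The median difference was -0.18, against 0.00 over all tested genes. By limma with Benjamini-Hochberg adjustment, 0 of 44 members passed, where 0% of all tested genes did. Unadjusted p was under 0.05 for 3 members, Rrs1, Nop58 and Wdr74, all lower, which is 6.82%, against 381 of all tested genes in either direction (2.78%) and 1.31% of them lower. Differences below -0.2 were found for 16 members (36.4%), against 11.7% of all tested genes, and differences above 0.2 for 0 members, against 13.8%. The 44 genes are one pathway and share their libraries, so these shares are a description with no test of the list.

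In 5 members, Nhp2, Noc4l, Bysl, Wdr74 and Noc3l, every TMP195 library lay below every vehicle library, which is 11.4% of the list against 1.87% of all tested genes. No member lay wholly above, against 2.4%. The number of lower members was 37 to 40 when any 1 of the 7 libraries was left out, and the median difference was then -0.23 to -0.14.

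**Figure D2:**
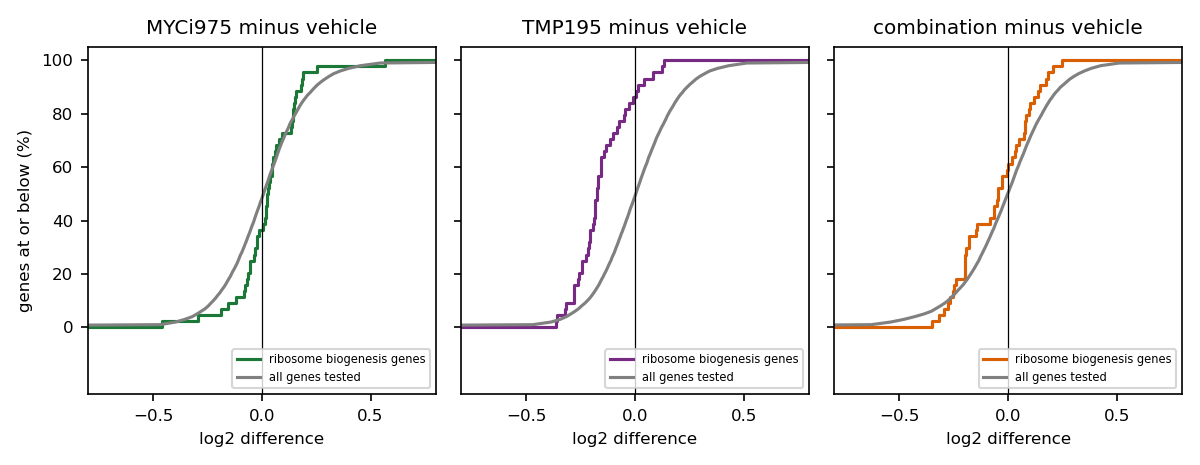
Cumulative share of genes (vertical axis, %) at or below each log2 difference (horizontal axis) for the 44 ribosome biogenesis genes (coloured steps) and all 13711 tested genes (grey line), for MYCi975, TMP195 and the combination, each minus vehicle. Except at the lowest values, the TMP195 steps lie left of the grey line, with a median of -0.18 against 0.00. The MYCi975 steps cross 0 at 36.4%, where the grey line is at 48.3%.

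Rrs1, which helps to bring a small ribosomal RNA into the large subunit, had 7.59, 7.41 and 7.68 in TMP195 tumours, against 7.68, 8.10, 7.82 and 7.90 in vehicle tumours. TMP195 replicate 3 and vehicle replicate 1 nearly coincided and the other libraries were apart. The difference was -0.32 ± 0.13 (SE, 95% interval -0.60 to -0.03, limma unadjusted p = 0.032, adjusted p = 0.9996).

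Nop58, a scaffold protein of the box C/D snoRNPs, had 9.38, 9.31 and 9.57 in TMP195 tumours, against 9.54, 9.57, 10.01 and 9.84 in vehicle tumours. TMP195 replicate 3 reached the lower vehicle libraries. The difference was -0.32 ± 0.14 (SE, 95% interval -0.62 to -0.03, limma unadjusted p = 0.035, adjusted p = 0.9996).

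Wdr74 had 6.56, 6.47 and 6.62 in TMP195 tumours, all below the vehicle values given above. The difference was -0.36 ± 0.17 (SE, 95% interval -0.71 to -0.01, limma unadjusted p = 0.044, adjusted p = 0.9996). MYCi975 and TMP195 are compared here with the same vehicle libraries, so the low values of Wdr74 under both compounds are not independent of each other.

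The members higher in TMP195 tumours were 6, and their differences were small. Rrp12 had 7.72, 7.63 and 7.86 in TMP195 tumours and differed by 0.13 from vehicle. Nop10, a small protein of the box H/ACA core, had 6.57, 6.45 and 6.51 in TMP195 tumours, against 6.53, 6.40, 6.49 and 6.07 in vehicle tumours (0.13), where vehicle replicate 4 was low. Noc2l, a nucleolar protein of large-subunit precursors, had 8.96, 9.25 and 9.25 in TMP195 tumours, against 8.94, 9.10, 9.31 and 8.95 in vehicle tumours (0.08). The others were Utp20 (0.04), Mybbp1a (0.01) and Polr1a (0.01), and all groups overlapped.

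The combination against vehicle gave 26 lower members (59.1%, against 50.3% of all tested genes) and 18 higher ones, with a median difference of -0.05, against -0.00 over all tested genes. By limma with Benjamini-Hochberg adjustment 0 of 44 members passed, where 0% of all tested genes did, and at an unadjusted p under 0.05 there were 0 members, against 470 of all tested genes (3.43%). Differences below -0.2 were found for 8 members, namely Dkc1, Ncl, Noc4l, Nop14, Nop58, Utp18, Wdr43 and Wdr74 (18.2%, against 16.7% of all tested genes). Every combination library lay below every vehicle library for Ddx21 and Noc4l (4.55%, against 3.27%), and for 0 members did every one lie above, against 2.8%. Differences above 0.2 were found for 2 members, Utp15 and Utp20 (4.55%, against 14.1%).

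Nop58 had 9.31, 9.55 and 9.49 in the combination libraries and differed from vehicle by -0.29 (95% interval -0.59 to 0.00, limma unadjusted p = 0.053, adjusted p = 0.992). Wdr74 had 6.70, 6.34 and 6.76 in the combination libraries, with replicate 3 just above vehicle replicate 1 (difference -0.32, 95% interval -0.67 to 0.04). Nop14, a scaffold of the small subunit precursor, had 8.21, 8.36 and 8.55 in the combination libraries, against 8.53, 8.53, 8.80 and 8.60 in the vehicle libraries (difference -0.24, 95% interval -0.53 to 0.04). In all 3 genes the combination libraries were mostly low but overlapped the vehicle libraries.

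In the other direction, Utp20, a large scaffold of early precursors, had 9.85, 9.78 and 10.01 in the combination libraries, against 9.91, 9.37, 9.41 and 9.82 in the vehicle libraries (difference 0.25). Utp15, of the complex that joins the precursor as it is transcribed, had 7.99, 7.82 and 7.93 in the combination libraries, against 7.70, 7.93, 7.58 and 7.63 in the vehicle libraries (difference 0.21). Pes1, a member of the PeBoW complex of the large subunit, had 9.30, 9.30 and 9.47 in the combination libraries, against 9.20, 9.10, 9.31 and 9.33 in the vehicle libraries (difference 0.12, 95% interval -0.11 to 0.36). The groups overlapped in each of these genes.

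**Figure D3:**
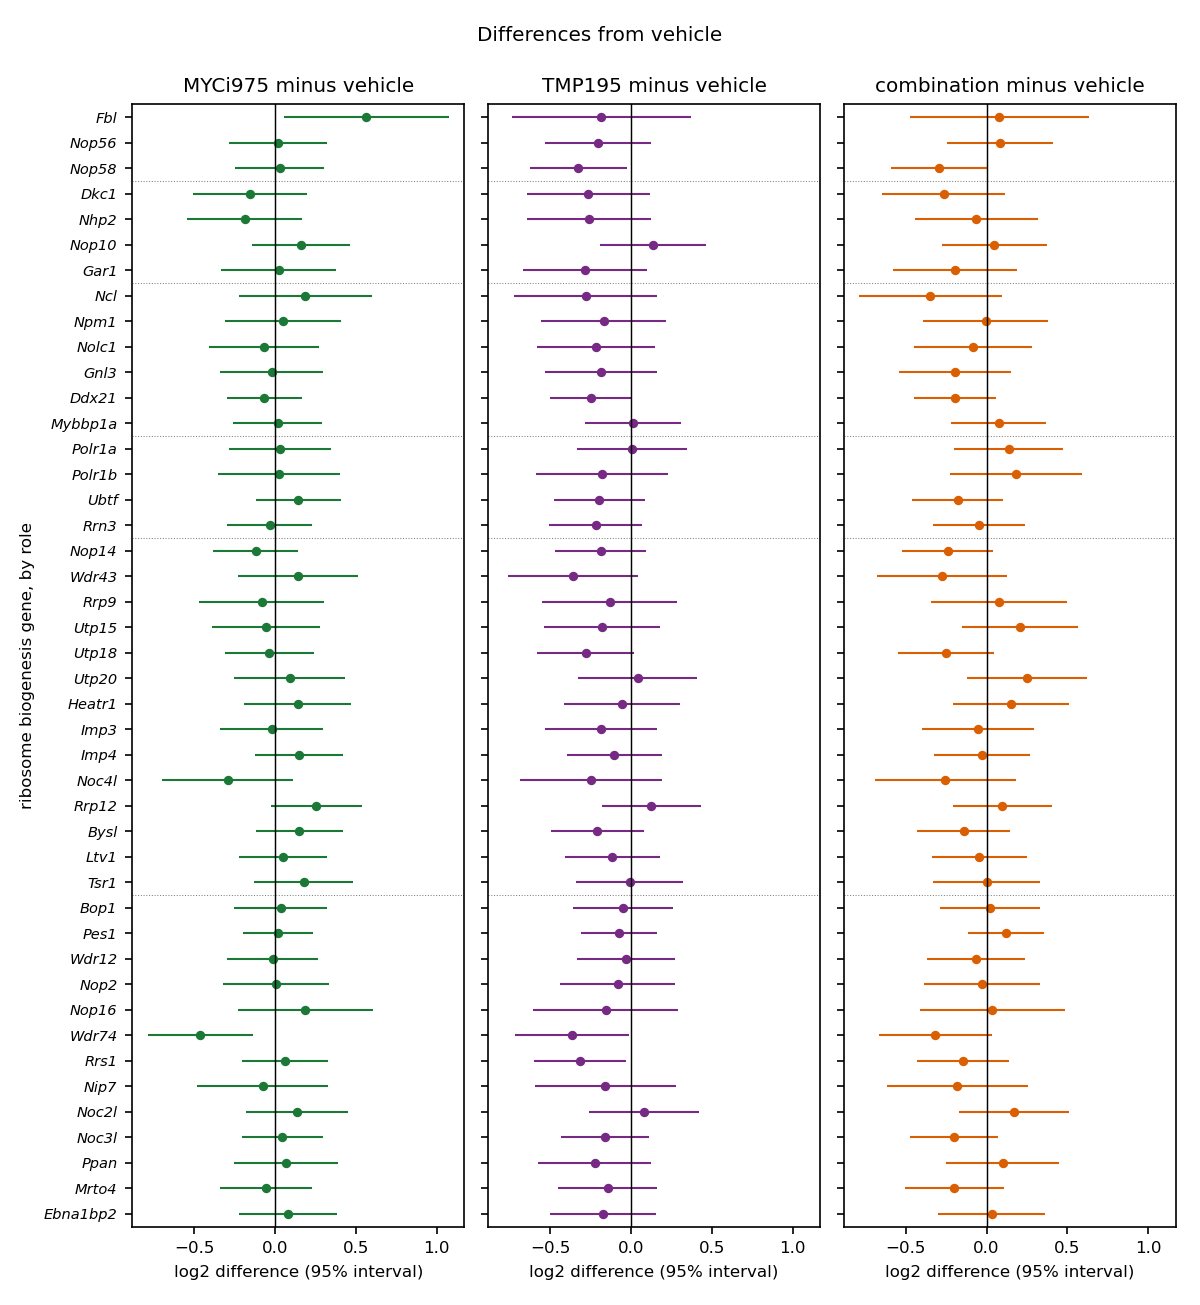
Difference from vehicle in log2 units (points) with its 95% interval from limma (lines), for the 44 ribosome biogenesis genes by role (rows) in MYCi975, TMP195 and combination tumours (panels). In the TMP195 panel 38 of 44 points lie left of 0, against 16 in the MYCi975 panel and 26 in the combination panel.

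Sorted by role, the TMP195 differences were negative on the median in each of the 6 groups of members, also when any 1 of the 7 libraries was left out. Leaving out libraries for the role medians was chosen after seeing the data. Of the 6 MYCi975 medians 4 turned negative without MYCi975 replicate 3, to -0.01 for the box C/D proteins, -0.11 for the RNA polymerase I genes, -0.04 for the small-subunit factors and -0.02 for the large-subunit factors. Further MYCi975 medians changed sign, to -0.01 without vehicle replicate 1 for large-subunit factors and 0.03 without vehicle replicate 4 for box H/ACA proteins. For nucleolar proteins it was 0.05 without MYCi975 replicate 1, 0.04 without MYCi975 replicate 2 or vehicle replicate 3, and 0.0015 without vehicle replicate 4. The combination median of the box C/D proteins was -0.14 without combination replicate 2, -0.04 without combination replicate 3 and -0.05 without vehicle replicate 1. That of the RNA polymerase I genes was -0.02 without combination replicate 3 and -0.01 without vehicle replicate 2. For large-subunit factors it was 0.06 without vehicle replicate 3. The box C/D snoRNP proteins Fbl, Nop56 and Nop58 had medians of 0.03 with MYCi975, -0.20 with TMP195 (3 of 3 lower) and 0.08 with the combination. The box H/ACA proteins, the pseudouridine synthase Dkc1 and its partners Nhp2, Nop10 and Gar1, had medians of -0.07, -0.26 (3 of 4 lower) and -0.13 in the same order of treatments. Gar1 differed by -0.28 and Dkc1 by -0.26 in TMP195 tumours, neither past the test.

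The nucleolar proteins had medians of -0.00 with MYCi975, -0.20 with TMP195 (5 of 6 lower) and -0.14 with the combination. They are Ncl and Npm1, the abundant RNA-binding chaperones nucleolin and nucleophosmin, the snoRNP chaperone Nolc1, the GTPase Gnl3, the RNA helicase Ddx21 and Mybbp1a. Ncl had 13.64, 14.07, 13.65 and 13.98 in MYCi975 tumours, 13.13, 13.17 and 13.81 in TMP195 tumours, 13.28, 13.45 and 13.18 in combination tumours, and 13.37, 13.53, 13.65 and 14.04 in vehicle tumours. TMP195 replicates 1 and 2 and combination replicates 1 and 3 lay below all vehicle libraries, and TMP195 replicate 3 was among the high values. The differences from vehicle were 0.19 in MYCi975 tumours, -0.28 in TMP195 tumours and -0.35 in combination tumours, each with a 95% interval across 0.

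Npm1 had 13.14, 12.95, 13.21 and 13.61 in MYCi975 tumours, 12.85, 13.04 and 13.13 in TMP195 tumours, 12.99, 13.47 and 13.04 in combination tumours, and 12.95, 13.28, 13.11 and 13.36 in vehicle tumours. The groups overlapped throughout (differences 0.05, -0.17 and -0.01). Reads of Npm1 can be shared with its many processed pseudogenes, so its value as a single gene is uncertain.

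Transcription of ribosomal DNA was represented by 4 members. Polr1a and Polr1b encode the large subunits of RNA polymerase I, Ubtf binds and opens the ribosomal DNA, and Rrn3 makes the polymerase competent to start. Ubtf had 9.33, 9.41, 9.24 and 9.26 in MYCi975 tumours, 8.80, 8.85 and 9.26 in TMP195 tumours, 8.96, 9.13 and 8.86 in combination tumours, and 9.01, 9.33, 9.10 and 9.22 in vehicle tumours. The MYCi975 libraries were close together at and above the upper end of the vehicle range, and TMP195 replicates 1 and 2 and combination replicates 1 and 3 lay below it. The differences were 0.14 in MYCi975 tumours, -0.20 in TMP195 tumours and -0.18 in combination tumours.

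Rrn3, whose promoter holds 2 E-boxes, had 8.49, 8.63, 8.95 and 8.78 in MYCi975 tumours, 8.61, 8.42 and 8.55 in TMP195 tumours, 8.66, 8.61 and 8.82 in combination tumours, and 8.63, 8.58, 8.87 and 8.89 in vehicle tumours. Its differences were -0.03, -0.22 and -0.05, with overlap in each case. Polr1a had 9.43, 9.55, 10.12 and 9.50 in MYCi975 tumours, 9.78, 9.63 and 9.47 in TMP195 tumours, 9.73, 9.64 and 9.89 in combination tumours, and 9.76, 9.45, 9.71 and 9.55 in vehicle tumours. MYCi975 replicate 3 was alone in exceeding 10, and without it the MYCi975 difference was -0.13 rather than 0.03. The 4 genes had a median difference of 0.03 with MYCi975. Polr1b differed by 0.02, -0.18 and 0.18.

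The 14 small-subunit factors had median differences of 0.07 with MYCi975, -0.15 with TMP195 (12 of 14 lower) and -0.04 with the combination. Wdr43, which with Utp15 and Heatr1 links transcription to processing, was chosen after its values were seen. It had 9.83, 10.21, 9.85 and 10.28 in MYCi975 tumours, 9.50, 9.11 and 10.01 in TMP195 tumours, 9.59, 9.67 and 9.62 in combination tumours, and 9.64, 9.83, 9.99 and 10.13 in vehicle tumours. TMP195 replicate 2 was far below the rest and TMP195 replicate 3 within the vehicle range. Its differences were 0.14 with MYCi975, -0.36 with TMP195 (95% interval -0.76 to 0.04) and -0.28 with the combination.

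Bysl, a factor of late small-subunit assembly also chosen after its values were seen, had 6.69, 6.49 and 6.78 in TMP195 tumours, against a narrow 6.86, 6.87, 6.82 and 6.90 in vehicle tumours (difference -0.21, 95% interval -0.50 to 0.08). Utp18, a component of an early precursor complex, differed by -0.28 with TMP195, and Rrp9, a protein of the snoRNP that guides the first cuts, by -0.13. Heatr1, Imp3 and Imp4 of the early precursor differed by -0.05, -0.19 and -0.10 with TMP195. Ltv1, a late factor, differed by -0.12.

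The 13 large-subunit factors had medians of 0.04 with MYCi975, -0.15 with TMP195 (12 of 13 lower) and -0.03 with the combination. The 3 PeBoW proteins differed little in TMP195 tumours, Pes1 by -0.07, Bop1 by -0.05 and Wdr12 by -0.03. Ppan differed by -0.22, Ebna1bp2 by -0.17, Noc3l by -0.16, Nip7 by -0.16, Nop16 by -0.15, Mrto4 by -0.14 and the RNA methyltransferase Nop2 by -0.08. Members of each role were therefore on the lower side with TMP195, and the test passed none of them.

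**Figure D4:**
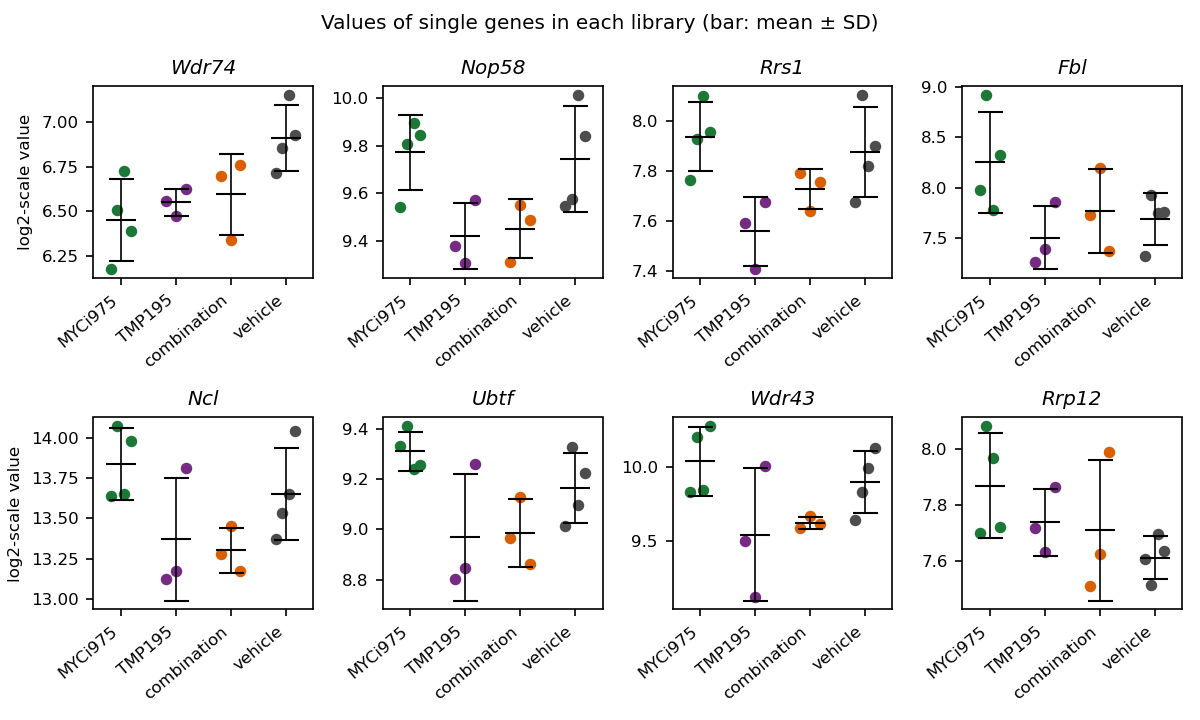
Log2-scale values of 8 ribosome biogenesis genes in each library (points) with the mean and SD of each group (bars), for MYCi975 (n = 4), TMP195 (n = 3), combination (n = 3) and vehicle (n = 4); each panel has its own vertical axis, which does not start at 0. Ncl, Ubtf and Wdr43 share a pattern of high MYCi975 values, low combination values and 1 high TMP195 library.

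The combination against MYCi975 asks what TMP195 added to the MYC inhibitor. This reading assumes that MYCi975 was dosed alike in both groups, and the labels do not state the doses of the combination. In combination tumours 30 of 44 members (68.2%) were lower than in MYCi975 tumours, against 49.8% of all tested genes, with a median difference of -0.07, against 0.00. By limma with Benjamini-Hochberg adjustment 0 of 44 passed, where 0% of all tested genes did. Unadjusted p was under 0.05 for 5 members, all lower, which is 11.4%, against 1120 of all tested genes in either direction (8.17%) and 5.03% of them lower. These were Ncl (-0.53 ± 0.21 SE), Ubtf (-0.32 ± 0.13), Nop58 (-0.32 ± 0.14), Wdr43 (-0.42 ± 0.19) and Bysl (-0.29 ± 0.14), each with an adjusted p of 0.611 by limma. They were singled out by their p-values. Differences below -0.2 were found for 10 members (22.7%), against 21.4% of all tested genes, and differences above 0.2 for 1 member, Utp15 (2.27%), against 18.6%.

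For Ncl, Ubtf and Wdr43 every combination library lay below every MYCi975 library (6.82% of the list, against 3.97% of all tested genes). No member lay wholly above, against 3.53%. Fbl differed by -0.49 in combination tumours, with 7.73, 8.20 and 7.37 against the MYCi975 values given above, and its 95% interval ran from -1.04 to 0.07. Marker genes of leukocytes moved in the same comparison: all 5 were lower in combination tumours (median difference -0.81), and their summed levels were 44.3 to 46.8 in combination libraries, against 46.9 to 54.8 in MYCi975 libraries. Their part in the differences of the members was not tested.

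The combination against TMP195 asks what MYCi975 added to the deacetylase inhibitor, again under the assumption of equal doses. In combination tumours 33 members were higher and 11 lower (25%, against 48.9% of all tested genes) than in TMP195 tumours, with a median difference of 0.07, against 0.01. The number of lower members was 18 without combination replicate 3, and 5 without combination replicate 1 or TMP195 replicate 3. By limma with Benjamini-Hochberg adjustment 0 of 44 passed, where 0% of all tested genes did. Only Utp15 had an unadjusted p under 0.05 (2.27%, against 603 genes or 4.4% in either direction and 1.66% higher), with 7.99, 7.82 and 7.93 in combination tumours, against 7.83, 7.29 and 7.48 in TMP195 tumours. Its difference was 0.38 ± 0.18 (SE), with an adjusted p of 0.998 by limma. Every combination library lay above every TMP195 library for Ebna1bp2, Pes1 and Rrn3 (6.82%, against 5.48%). No member lay wholly below, against 6.36%. Differences above 0.2 were found for 9 members (20.5%, against 15.1%), and differences below -0.2 for 0 members, against 18.2%. Markers of other cell types and of the cell cycle moved in this comparison too. All 5 leukocyte markers were lower in combination tumours (median -0.75), with summed levels of 44.3 to 46.8 in combination libraries, against 47.8 to 52.2 in TMP195 libraries. Of the 6 neutrophil markers 5 were tested and all 5 were lower (median -0.71), with summed levels over the 6 of 44.9 to 46.2 in combination libraries, against 46.9 to 50.5 in TMP195 libraries. Of the 12 proliferation markers 10 were higher in combination tumours (median 0.14), with summed levels of 106.2 to 106.6 in combination libraries, against 103.5 to 105.8 in TMP195 libraries. The part of these in the member differences was not tested.

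The interaction compares the effect of MYCi975 on top of TMP195 (combination minus TMP195) with its effect alone (MYCi975 minus vehicle). It too assumes the same doses in the combination as in the single treatments. It was above 0 for 31 members and below 0 for 13 (29.5%, against 49.8% of all tested genes), with a median of 0.06, against 0.00 over all tested genes. The number below 0 was 21 without combination replicate 3 and 20 without vehicle replicate 3. By limma with Benjamini-Hochberg adjustment 0 of 44 passed, where 0% of all tested genes did, and Wdr74 alone had an unadjusted p under 0.05 (2.27%, against 656 genes or 4.78%). Its interaction was 0.51 (95% interval 0.01 to 1.01, adjusted p = 0.911 by limma). Wdr74 was lower than vehicle in each treated group, and the value for both (-0.32 from vehicle) was no lower than for either alone (-0.46 and -0.36).

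Further genes of the pathway were read beside the 44. Of 93 further ribosome biogenesis genes, 91 were tested, and in TMP195 tumours 66 were lower and 25 higher than in vehicle tumours, with a median of -0.07. With MYCi975 37 were lower and 54 higher (median 0.03), and with the combination 57 were lower and 34 higher (median -0.06). Of all tested genes 49.2% were lower with TMP195, 48.3% with MYCi975 and 50.3% with the combination. None of the 91 passed the test in any of the 3 comparisons by limma. Unadjusted p was under 0.05 for 3 of the 91 with MYCi975, 1 with TMP195 and 3 in combination tumours. Of all tested genes 3.33%, 2.78% and 3.43% were under 0.05 in that order. With MYCi975, the small-subunit GTPase Bms1 (0.37) and Utp6 (0.33) had the smallest p among higher genes, and Gnl3l (-0.30) and the kinase Riok2 (-0.26) among lower ones. With TMP195 these were Nop9 (0.20) and Utp23 (0.17), against Rrp15 (-0.40) and the snoRNP protein Snu13 (-0.27). With the combination they were Nle1 (0.32) and Nsun5 (0.26), against Utp3 (-0.42) and Nol8 (-0.28).

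The ribosomal proteins are what these factors assemble onto the RNA. Of 79 cytosolic ribosomal protein genes, 69 were lower in MYCi975 tumours (median -0.16), 65 in TMP195 tumours (median -0.07) and 39 in combination tumours (median 0.00), each against vehicle. Of all tested genes 48.3%, 49.2% and 50.3% were lower in the same order. The mean deviation of the 79 genes from their own means was -0.21, -0.53, 0.02 and 0.34 in the MYCi975 libraries. It was -0.18, 0.27 and -0.12 in the TMP195 libraries and -0.16, 0.46, -0.12 and 0.08 in the vehicle libraries, so the groups overlapped. None of the 79 passed the test by limma, nor was any at an unadjusted p under 0.05. With MYCi975 Rpl7a (-0.33) and Rplp0 (-0.28) had the smallest p among lower genes, and Rplp2 (0.09) and Rpl19 (0.09) among higher ones. With TMP195 these were Rpl22 (-0.34) and Rpl36a (-0.32), against Rpl28 (0.22) and Rps13 (0.20). With the combination they were Rpl5 (-0.31) and Rpl35 (-0.28), against Rps26 (0.24) and Rpl28 (0.22). Ribosomal protein genes have many near-identical pseudogene copies and are uncertain as single genes.

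Myc itself had 8.97, 9.27, 9.42 and 8.86 in MYCi975 tumours, between 8.96 and 9.15 in the 3 TMP195 tumours, 8.98, 9.11 and 9.11 in combination tumours, and 8.69, 9.05, 9.27 and 8.86 in vehicle tumours. All groups overlapped, and the differences were 0.16 (95% interval -0.15 to 0.47), 0.07 and 0.10. MYCi975 acts on the MYC protein, so the Myc transcript does not check the treatment. Of 12 genes of the MYC network 10 were tested. Of these 9 were higher with MYCi975 (median 0.14, Mlx 0.41, Max 0.28, with Mxd3 -0.07), 6 with TMP195 (median 0.05, Mxi1 0.47, Mlx 0.41, Mga -0.19, Mxd3 -0.13) and 7 with the combination (median 0.03, Mlx 0.28, Mxd1 -0.30, Mnt -0.05). The lower ones of the 10 were thus 1, 4 and 3 in the same order of treatments. Of all tested genes 48.3%, 49.2% and 50.3% were lower in that order. The largest MYCi975 difference was that of Mxd1 (0.67), whose SD was 0.98 in MYCi975 libraries. The mean deviation of the network genes was 0.11, 0.45, 0.05 and -0.12 in MYCi975 replicates 1 to 4, against -0.14 to -0.03 in vehicle libraries. None of the 10 passed the test by limma, and Mxi1, a MAX partner that opposes MYC, was the single one at an unadjusted p under 0.05 in these comparisons.

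Proliferation markers numbered 12, all tested. Against vehicle, 9 were lower with MYCi975 (median -0.09, Bub1 -0.34, Tyms -0.22, with Rrm2 0.20 and Mcm2 0.19), 10 with TMP195 (median -0.10, Ccna2 -0.36, Mcm2 -0.32, with Bub1 0.03 and Tyms 0.01) and 5 with the combination (median 0.04, Pcna -0.20, Bub1 -0.12, with Rrm2 0.28 and Ccnb1 0.29). Of all tested genes 48.3%, 49.2% and 50.3% were lower in the same order of treatments. None of the 12 markers passed the test by limma. Against vehicle, Bub1 with MYCi975 was the single one at an unadjusted p under 0.05. In combination minus TMP195, 2 of the 12 were under 0.05 and higher, where 1.66% of all tested genes were. Summed levels were 102.6 to 108.1 in MYCi975 libraries, 103.5 to 105.8 in TMP195 libraries, 106.2 to 106.6 in combination libraries and 103.6 to 108.4 in vehicle libraries. Their part in the lower member values with TMP195 was not tested.

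Other cell types moved beside the TMP195 result as well. Skeletal muscle markers had summed levels of 31.7 to 35.8 over 7 genes in TMP195 libraries, against 31.3 to 50.8 in vehicle libraries, and the 3 that were tested, Ttn, Myh4 and Acta1, had a median difference of -1.84. Of the muscle list Ckm was at the floor in 3 libraries, Myh1 and Myh4 in 2 each, and Tnnt3 and Mylpf in 1 each. Leukocyte markers were higher in TMP195 tumours in 5 of 5 cases (median 0.24, summed levels 47.8 to 52.2, against 46.6 to 49.7 in vehicle libraries), with none at the floor. In MYCi975 tumours 5 of 5 were higher as well (median 0.24, summed levels 46.9 to 54.8), and in combination tumours 5 of 5 were lower than in vehicle tumours (median -0.52, summed levels 44.3 to 46.8). By library the leukocyte sums were 49.7, 54.8, 46.9 and 47.7 in MYCi975 tumours and 47.8, 49.3 and 52.2 in TMP195 tumours. Of these, only MYCi975 replicate 2 and TMP195 replicate 3 lay above the vehicle range. The part of either cell type in the member differences was not tested. The 6 genes taken as tumour cell markers had a median difference of 0.07, with summed levels of 60.7 to 62.8 in TMP195 libraries, against 60.5 to 62.1 in vehicle libraries. Of these Vim, Cd44, Met and Lgals3 were higher with TMP195. Krt8 (mean 8.09, against 8.24 in vehicle tumours) and Krt18 (8.27, against 8.31) were lower. The highest sum was in TMP195 replicate 3, which also had the highest leukocyte sum of the TMP195 libraries. Whether the 6 genes mark tumour cells alone was not tested.

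Several members are host genes of small nucleolar RNAs, which are cut out of their introns. In GENCODE M21, 8 members (Nop56, Nop58, Dkc1, Ncl, Gnl3, Wdr43, Tsr1 and Ppan) hold 23 such RNAs within their span, of which 10 were in the table and 4 were tested. In TMP195 tumours the snoRNAs of Nop58 differed by 0.18 (Snord70) and 0.14 (Gm26293) from vehicle, where Nop58 itself differed by -0.32. Snord82, within Ncl, differed by 0.07 and Gm23008, within Ppan, by -0.07, where their hosts differed by -0.28 and -0.22. Snord70 ranged from 4.96 to 6.37 over the libraries and Snord82 from 6.36 to 7.98, wider than their hosts, and no difference passed the test by limma. On the opposite strand 17 members were overlapped by another gene, and for 12 of them that gene was in the table. The kit keeps strand, but the labels do not say whether strand was used in quantification, so values of these 12, among them Bysl, Nhp2, Tsr1 and Noc2l, are uncertain to that degree.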

How the data were processed

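RNA sequencing libraries were made from LLC1 tumours with a stranded total RNA kit, per the labels' protocols. The authors deposited 1 table of log2 values after a variance-stabilising transformation, for 21152 mouse Ensembl gene IDs in 14 libraries, per the file headers. Salmon and hg38, a human build, are named in the submitters' processing notes, although the IDs are mouse, so no coordinates are taken from these values. Earlier filters and scaling are not stated. Read counts could not be recovered, so depth is unknown, and the libraries' number and spread set the precision. A mouse symbol was matched for 20264 IDs and not for 888.

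Genes with a mean more than 1 log2 unit above the lowest value, 13711 in all, were fitted with limma 3.58.1 in R 4.3.3, with 1 mean per group, all 14 libraries, a moderated variance with an intensity trend (10 residual and 5.275 prior degrees of freedom) and two-sided tests. P-values were adjusted by Benjamini-Hochberg over all tested genes at 0.05, in 6 comparisons. The labels do not say that libraries came from separate animals, so p-values measure the spread between libraries, which may be technical. The members, their roles and the other lists were chosen with earlier results of these data known. Values in every library are given for Fbl, Ncl, Npm1, Polr1a, Ubtf and Rrn3 and for the members ranking in the first 3 by p, higher or lower, in each comparison with vehicle. Of other pathway lists the first 2 by p, higher or lower, are named, and Myc. The fit was tested on simulated data. Promoter stretches come from RefSeq (GRCm38.p6) and gene overlaps from GENCODE M21. Alternatives were no filter, a filter of 2 log2 units, quantile normalisation, median centring, library weights, no trend, robust moderation, the replicate number as a term, only the groups compared, and leaving out each library.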

Additional observations from a re-analysis of the deposited data

Results flagged for a closer look

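In 6 of 88 sets of 4 libraries (the 44 members in the MYCi975 and in the vehicle group) 1 library lay far from the other 3 by Dixon's criterion of 0.829, where chance gives about 1 in 20, or 4.4 sets. In MYCi975 replicate 3, Nolc1 was 9.24 (others 8.72 to 8.80), Polr1a was 10.1 (others 9.43 to 9.55) and Utp15 was 8.08 (others 7.48 to 7.54). In MYCi975 replicate 2, Imp3 was 6.91 (others 7.39 to 7.48). Among vehicle libraries, Noc4l was 6.51 in replicate 2 (others 6.09 to 6.13) and Wdr12 was 8.61 in replicate 4 (others 8.73 to 8.76). The interaction term passed the test for 0 members.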

How the results depend on the processing

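No gene passed an adjusted p of 0.05 in any of 102 fits by limma, over all 6 comparisons and all alternatives; the interaction was not refitted on only the groups compared, since it uses all of them, and Noc4l was not tested under the filter of 2 log2 units. Against vehicle with TMP195 the number of lower members stayed at 37 to 40 and with the combination at 25 to 29 under every alternative. Leaving out each library in turn, the number of lower members was 11 to 27 for MYCi975 (11 without MYCi975 replicate 1, 27 without replicate 3), 5 to 18 for combination minus TMP195 (18 without combination replicate 3, 5 without combination replicate 1 or TMP195 replicate 3) and 9 to 21 for the interaction (21 without combination replicate 3, 20 without vehicle replicate 3). The same omissions turned the sign of small differences, which ran from -0.076 to 0.14 for Npm1, -0.13 to 0.10 for Polr1a and -0.11 to 0.041 for Rrn3 with MYCi975, from -0.071 to 0.085 for Polr1a with TMP195, and from -0.14 to 0.28 for Fbl, -0.16 to 0.081 for Npm1 and -0.11 to 0.0028 for Rrn3 with the combination. Quantile normalisation gave Polr1a -0.032 with MYCi975 and -0.020 with TMP195, and 22 lower members with MYCi975. Npm1 with the combination was 0.00337 with median centring, 0.021 with quantile normalisation, 0.047 with library weights and 0.088 with the replicate block. The cause of these turns was not tested. With the replicate number as a block, Polr1a with TMP195 was -0.030, and 38 members were lower with TMP195 and 28 with the combination. Libraries with the same number did not deviate together as a set (r -0.30 to 0.21 over 19 pairs, 6 over 0.1), so the block result stands here only. Between TMP195 and vehicle libraries, r was 0.11, 0.17 and 0.21 for replicates 1, 2 and 3. With the block the TMP195 difference was -0.07 rather than -0.17 for Npm1, and -0.19 rather than -0.28 for Ncl. With 3 or 4 libraries a group and unknown depth, an observed difference from vehicle smaller than about 0.3 log2 units does not reach an unadjusted limma p of 0.05 for a member of typical spread.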

Other observations

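Markers of further cell types are given as values. Against vehicle, neutrophil markers (5 of 6 tested, Ly6g at the floor in 1 library) had median differences of 0.62 in MYCi975 tumours, 0.31 in TMP195 tumours and -0.34 in combination tumours. Macrophage markers had medians of -0.07, -0.01 and -0.40, T cell markers of 0.10, 0.06 and -0.43, and endothelial markers of -0.03, -0.13 and -0.22 in the same order. Fibroblast markers had medians of 0.20, 0.05 and 0.42, and erythroid markers of -0.18, -0.20 and 0.01. Summed levels of the neutrophil markers were 51.6, 56.7, 46.4 and 49.3 in MYCi975 replicates 1 to 4, against 45.2 to 48.7 in vehicle libraries. No marker passed the test by limma in these comparisons.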
